A study of Mus musculus with 12 samples.

Results

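SNARE genes and the genes of their direct regulators were followed in mouse bone marrow-derived macrophages, with a control siRNA or an siRNA against Ehd1, at rest and after lipopolysaccharide. Members were chosen by symbol: the syntaxin (Stx), syntaxin-binding (Stxbp), Vamp, Sec22, Vti1, Gosr and Bet1 families, with Snap23, Snap47, Ykt6, Use1, Bnip1, Nsf, Napa and Napg, each with 10 or more counts in 3 or more libraries. Of 24421 genes in the tables, 45 symbols matched and 42 were members. All 42 passed the filter on low counts and were among the 12164 genes tested. Stxbp6 lay just inside the count rule, with 10 or more counts in exactly 3 libraries, all of them resting siEhd1 libraries (12, 11 and 10 counts). Outside it was Stx19, with at most 2 counts in any library. Vamp7 was listed at 0 counts in all 12 libraries, where a count of 0 allows up to 3 counts, or 0.128 to 0.172 CPM (normalised counts per 1000000 counts) depending on the library. Its symbol had no match in GENCODE M21, so this limit covers counting error only, and whether the 0 comes from the level or from the annotation used for counting cannot be told apart.

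The cells were primary macrophages grown from the marrow of male C57BL/6J mice aged 8 weeks. The 4 groups of 3 libraries were resting cells with control siRNA (siControl, M0), resting cells with siEhd1 (M0), lipopolysaccharide-treated cells with siControl (M1) and lipopolysaccharide-treated cells with siEhd1 (M1), so every group had received an siRNA. Libraries are named by state, siRNA and replicate (M0_siCON, M0_siEHD1, M1_siCON and M1_siEHD1). Lipopolysaccharide (LPS) is a bacterial cell wall component that activates macrophages through a Toll-like receptor. The sources used here do not give the siRNA sequences, the dose and duration of LPS, or whether libraries of a group came from separate mice or cultures. The p-values therefore measure the spread among libraries, and that spread may be technical.

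SNAREs are small, mostly membrane-anchored proteins that fuse vesicles with their targets. A Qa, a Qb, a Qc and an R helix on facing membranes zip into a bundle, Sec1/Munc18 proteins such as those of Stxbp2 and Stxbp3 guide the syntaxin, and the ATPase NSF with its SNAP adaptors takes the spent bundle apart. EHD1 is a dynamin-like ATPase of recycling endosomes, and macrophages depend on SNARE-driven fusion for cytokine release, phagosome maturation and lysosomal delivery.

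Library totals were 18572725 to 22545272 counts with 14119 to 14753 genes detected in each. Ehd1 itself averaged 53.2 CPM (scaled by TMM factors) in resting siControl and 31.5 in resting siEhd1 libraries, and 620 and 302 CPM after LPS (log2 fold changes -0.76 and -1.04, edgeR adjusted p = 5.7e-07 and 2.5e-08), so the knockdown was partial. Macrophage markers summed to 23702 to 24381 CPM in resting siControl, 19643 to 21024 in resting siEhd1, 31488 to 38049 in LPS siControl and 34744 to 36389 in LPS siEhd1 libraries, with all 8 listed markers detected. Tnf, Il1b, Nos2, Il6, Cxcl10 and Ptgs2, genes induced by LPS, summed to 13.2 to 17.6 CPM in resting and 1247 to 1813 CPM in LPS-treated libraries. Markers of T and NK, B, dendritic, mast and neutrophil cells each summed to at most 3.66 CPM, stromal markers to at most 16.5 and endothelial markers to at most 33.8, and the erythroid markers, Cd3e, Ncr1 and Fcer1a were at 0. In bulk RNA, fewer cells of a type and less RNA per cell cannot be told apart. Resting and LPS-treated libraries were deposited in separate tables, so any difference in handling between those tables and the LPS effect cannot be told apart.

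Of the members, 10 carried the 7-base sequence GCCTTGT in an annotated 3′ UTR, a sequence that an earlier look at these same libraries had found often in genes lower with siEhd1, so its presence here is a description. Gosr2 and Napg carried it at 2 places, and Napa, Sec22a, Stx18, Stx2, Stx6, Stxbp4, Vti1a and Vti1b once. All 42 members had a 3′ UTR to search, and 12.4% of the 19505 symbols searched carried the sequence. Those symbols include genes that were not tested. Among the genes tested, as all members were, 1652 carried it and 9585 did not. The sites of the 6 carriers that were lower with siEhd1 in at least 1 state are printed because the results return to them. Each is 30 bases of the transcript strand, 5′ to 3′, from GENCODE M21 (GRCm38), and capitals mark the GCCTTGT match:
Gosr2, first site: ttccattcagtGCCTTGTgagatgactctg
Gosr2, second site: aaagccagcttGCCTTGTtgaatttaaata
Vti1a: catccttccttGCCTTGTggacatgcctgg
Vti1b: ctgtagggaaaGCCTTGTggaccagcatct
Stx2: agctagacactGCCTTGTgaaggacaatgg
Stx18: aattcacatctGCCTTGTcgagctaataaa
Stxbp4: ttcttcaggttGCCTTGTaggcaagtttgt
In GRCm38 the matches lie at chr11:103677282-103677288 and chr11:103676948-103676954 (Gosr2, minus strand), chr19:55624219-55624225 (Vti1a, plus), chr12:79156453-79156459 (Vti1b, minus), chr5:128985833-128985839 (Stx2, minus), chr5:38136787-38136793 (Stx18, plus) and chr11:90599683-90599689 (Stxbp4, minus). Counted from the first base after the stop codon, the Vti1b match starts at base 16 of a 458-base 3′ UTR and that of Vti1a at base 309 of 3399. Those of Gosr2 start at bases 1948 and 2282 of 2387. All 3 searched Stx18 transcripts and both searched Stx2 transcripts hold the match, against 1 of 4 for Stxbp4, 1 of 2 for Gosr2 and Vti1b, and 2 of 3 for Vti1a. Which of these transcripts the cells made was not measured.

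In resting siControl cells the members ranged widely in level. On a scale of RPKM (CPM per kilobase of GENCODE M21 exons), the highest were Stxbp2, the Munc18 protein of granule exocytosis (53.4 ± 1.25), Stx4a, a plasma membrane syntaxin (52.1 ± 2.26), Ykt6, a lipidated R-SNARE (44.8 ± 1.51), and Vamp8, an R-SNARE of late endosomes and secretory granules (43.4 ± 1.73; SD, n = 3 for each). Stxbp2 and Stx4a differed by less than the SD of Stx4a, and Ykt6 and Vamp8 by less than the SD of either. Then came Snap23 at 39.2 ± 1.57, which supplies both Qb and Qc helices at the plasma membrane, Vamp3 at 34.2 ± 1.53 and Gosr2 at 33.7 ± 1.90. Lowest were Vamp5 (0.752 RPKM), Vamp1 (0.529), Stxbp4 (0.485), Stx1a (0.346) and Stxbp6 (0.0580), the neuronal Stx1a and Vamp1 among them. After LPS, Vamp8 was highest at 85.7 ± 7.22 RPKM in siControl cells (SD, n = 3), clear of Ykt6 at 55.4 ± 4.12 and Stxbp2 at 54.7 ± 1.29, which did not differ beyond their SDs. Summed over the members, CPM was 2641 to 2671 in resting siControl, 2576 to 2603 in resting siEhd1, 3060 to 3121 in LPS siControl and 2909 to 3001 in LPS siEhd1 libraries, so within each state the siEhd1 range lay below that of siControl.

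The first comparison asked which members differ with siEhd1 in resting cells. A gene was called where edgeR's quasi-likelihood F test gave an adjusted p below 0.05 over all genes tested. Called higher were 3 members (7.14%), against 14.0% of all genes tested, and called lower were 10 (23.8%), against 14.2% of all genes. Without M0_siEHD1 replicate 1 or replicate 2 the lower members numbered 6, against 9.41% and 11.0% of all genes tested in those fits. The median log2 fold change was -0.11 over members and -0.02 over all genes. The higher 3 were Stx12, Stx7 and Ykt6, and among the lower 10 were 3 of the 5 Qb SNAREs. The changes were small: apart from the weakly expressed Vamp5 (47.7%), no called member was below 76.8% of its siControl level, and none of the higher ones exceeded 122%. In the same resting siEhd1 libraries the macrophage marker sum was below that of siControl (ranges above), and its part in these differences was not tested.

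**Figure D1:**
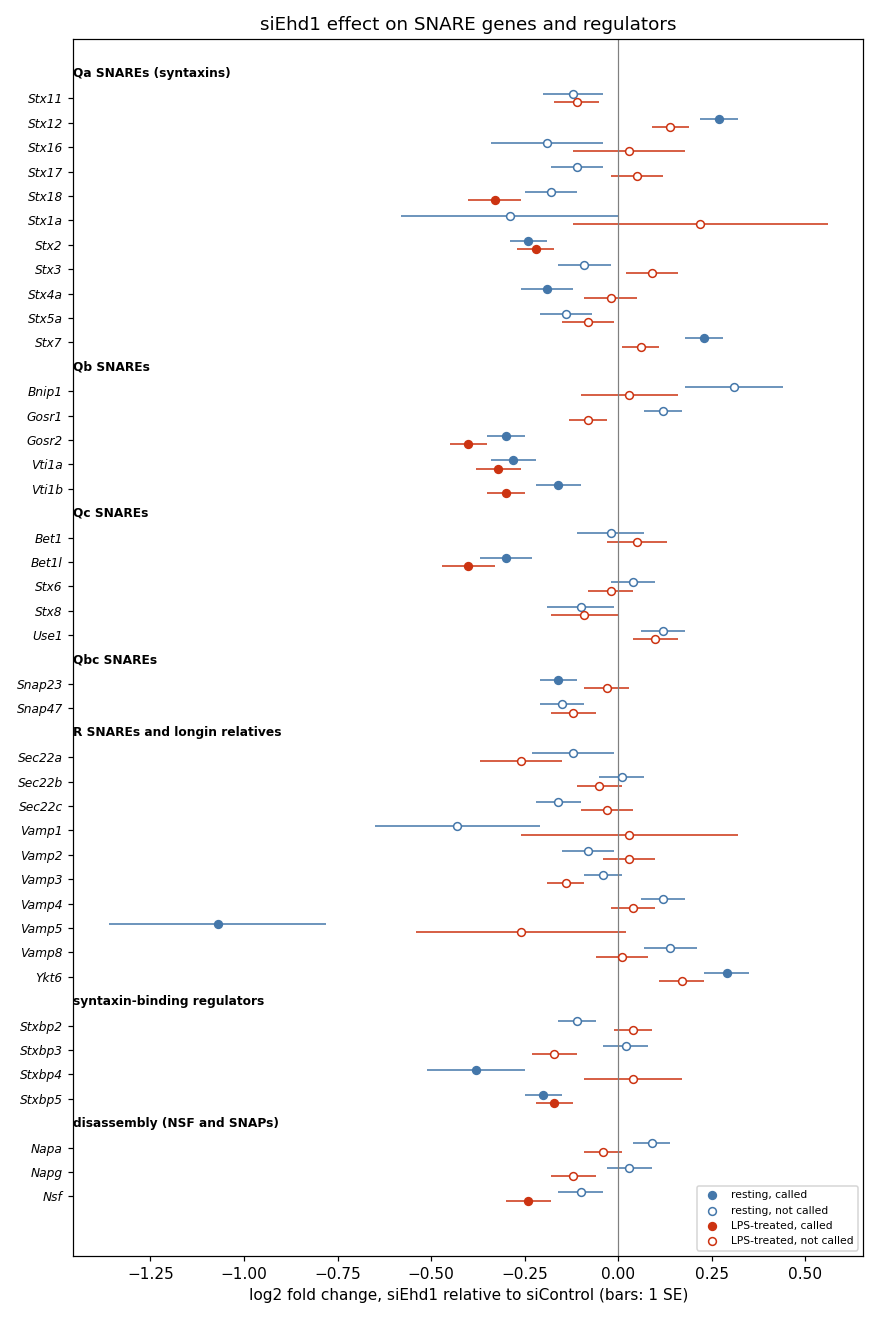
Log2 fold change of siEhd1 relative to siControl (horizontal axis, bars 1 SE) for the members by role, resting in blue and LPS-treated in red, with filled points for members called by edgeR at an adjusted p below 0.05. Stxbp6 is left out for its few counts and 1 further member is not shown. Gosr2, Vti1a, Vti1b, Bet1l, Stx2 and Stxbp5 are filled and left of zero in both states, and Stx12, Stx7 and Ykt6 are filled to the right in resting cells.

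After LPS, 8 members were lower with siEhd1 (19.0%), against 4.10% of all genes tested, and none was called higher, against 4.44% of all genes. At an unadjusted p below 0.05 edgeR gave 2 members higher and 11 lower, and DESeq2 and limma-voom called 2 and 1 higher. The median was -0.03 over members and -0.00 over all genes. Lower in both states were 6 members, Gosr2, Vti1a, Vti1b, Bet1l, Stx2 and Stxbp5, where 2.64% of all genes tested were lower in both. Without M1_siEHD1 replicate 1 the members lower after LPS numbered 5, against 2.46% of all genes tested in that fit. These states share no library. For the difference between the siEhd1 effects in the 2 states, edgeR called no member higher (3.12% of all genes) or lower (2.93%), and its smallest adjusted p was 0.12, for Gosr1. At an unadjusted p below 0.05, 2 members differed upward and 3 downward, and DESeq2 and limma-voom called none. An effect called in 1 state and not in the other is therefore not shown to differ between states.

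Among the Qb SNAREs, Gosr2, which acts in transport from the ER to the Golgi, was at 107, 106 and 117 CPM in resting siControl and 87.6, 92.5 and 88.8 in resting siEhd1 libraries. After LPS it was at 150, 144 and 141 CPM with siControl and 106, 117 and 107 with siEhd1. Each siEhd1 library was below each siControl library of its state, and the LPS-treated siEhd1 libraries covered the range of the resting siControl libraries. Its log2 fold change with siEhd1 was -0.30 (SE 0.05, edgeR adjusted p = 3.7e-04) at rest and -0.40 (SE 0.05, edgeR adjusted p = 8.8e-05) after LPS, that is 81.4% and 76.0% of siControl. The interval of the difference between the effects was -0.28 to 0.08 (95%). A noncoding RNA, C130046K22Rik, overlaps 149 exonic bases of Gosr2 on the other strand. It averaged 2.68 CPM in resting siControl and 1.89 in resting siEhd1 libraries (-0.50, edgeR adjusted p = 0.024). After LPS it averaged 3.24 and 2.86 CPM (-0.18, edgeR adjusted p = 0.55). The strand setting of the counting is not given, and the part of this RNA in the Gosr2 values was not tested.

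Vti1a, a SNARE of the trans-Golgi network and endosomes, was at 42.8, 44.4 and 43.4 CPM in resting siControl and 35.5, 38.3 and 33.9 in resting siEhd1 libraries. After LPS the values were 87.1, 83.0 and 79.3 with siControl and 63.9, 69.5 and 66.9 with siEhd1. The groups did not overlap in either state, with log2 fold changes of -0.28 (SE 0.06, edgeR adjusted p = 0.0017) and -0.32 (SE 0.06, edgeR adjusted p = 0.0012). Its relative Vti1b, a SNARE of late endosomes and of carriers leaving the Golgi, went from 40.9, 44.4 and 43.2 CPM to 39.0, 37.4 and 39.0 at rest. With LPS it went from 63.0, 60.0 and 57.5 to 49.2, 48.0 and 48.9. These groups too were separate, narrowly at rest and by more than 8 CPM after LPS. The fold change of Vti1b was -0.16 (SE 0.06, edgeR adjusted p = 0.041) at rest, a call lost in 9 of 12 alternatives, among them leaving out M0_siCON replicate 2 or 3 or any M0_siEHD1 library (adjusted p 0.036 to 0.15), and -0.30 (SE 0.05, edgeR adjusted p = 0.0011) after LPS, lost in none.

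Vti1b shares 285 exonic bases with the arginase gene Arg2 on the opposite strand, and the sources used here do not give the strand setting of the counting, so reads from these bases cannot be assigned to 1 gene. Arg2 averaged 1.10 CPM in resting and 43.9 CPM in LPS-treated siControl libraries (0.427 and 37.8 with siEhd1). Its own log2 fold change with siEhd1 was -1.35 at rest (edgeR adjusted p = 0.0021) and -0.22 after LPS (edgeR adjusted p = 0.11). Its part in the Vti1b values was not tested. The other Qb members, Gosr1 of the Golgi stack and Bnip1 of the ER, were not called with siEhd1 in either state (0.12 and 0.31 at rest, -0.08 and 0.03 after LPS).

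Bet1l, a Qc SNARE of transport within the Golgi, was at 21.0, 23.2 and 22.7 CPM in resting siControl and 17.9, 17.9 and 18.6 in resting siEhd1 libraries, and at 25.6, 25.5 and 24.0 against 18.6, 19.4 and 18.9 CPM after LPS. No siEhd1 library reached the lowest siControl library of its state. The log2 fold changes were -0.30 (SE 0.07, edgeR adjusted p = 0.0019) and -0.40 (SE 0.07, edgeR adjusted p = 5.9e-04), close to those of Gosr2. Bet1l carried no GCCTTGT match. Bet1l shares 390 exonic bases with Ric8a on the other strand and 360 with Gm45785 on its own, and neither symbol has a row in the tables. None of the other Qc members, Stx6, Stx8, Bet1 and Use1, was called, and their fold changes lay between -0.10 and 0.12 in both states.

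The Qa SNAREs, or syntaxins, moved in both directions. Stx2, a plasma membrane syntaxin, was at 116, 104 and 100 CPM with siControl and 89.4, 89.1 and 91.7 with siEhd1 at rest, and at 152, 151 and 147 against 127, 129 and 131 after LPS. Its siEhd1 libraries were lower in both states without overlap (-0.24, SE 0.05, edgeR adjusted p = 0.0017, and -0.22, SE 0.05, edgeR adjusted p = 0.010). Without M1_siEHD1 replicate 1 the LPS-state adjusted p was 0.057.

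Stx18, a syntaxin of the ER that receives vesicles returning from the Golgi, was called lower after LPS and not at rest. Its values there were 21.0, 20.9 and 22.8 CPM with siControl and 17.5, 16.4 and 17.4 with siEhd1 (-0.33, SE 0.07, edgeR adjusted p = 0.0037). At rest they were 15.1, 15.0 and 15.0 against 13.3, 13.5 and 12.9 (-0.18, edgeR adjusted p = 0.063), again without overlap, and the difference between the effects had a 95% interval of -0.38 to 0.08. On the opposite strand Stx18 shares 574 exonic bases with Nsg1, which was at no more than 0.132 CPM in any library, and 908 with Gm42858, which has no row in the tables. The part of either gene in the Stx18 values was not tested.

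Stx12, a syntaxin of recycling endosomes, was higher with siEhd1 in resting cells, at 67.3, 67.2 and 64.5 CPM against 78.7, 79.9 and 81.6 (0.27, SE 0.05, edgeR adjusted p = 2.2e-04). After LPS the values were 114, 108 and 111 with siControl and 123, 122 and 122 with siEhd1, also without overlap (0.14, edgeR adjusted p = 0.056). This was the member with the smallest adjusted p at rest. Stx7, a syntaxin of late endosomes, rose from 132, 138 and 133 to 153, 161 and 157 CPM at rest (0.23, SE 0.05, edgeR adjusted p = 9.8e-04). Its LPS-treated libraries were closer, at 141, 139 and 144 against 146, 150 and 146 CPM (0.06, edgeR adjusted p = 0.49).

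Stx4a was called lower at rest (-0.19, edgeR adjusted p = 0.043), a call that 5 of 12 alternatives lost, among them leaving out replicate 1 or 2 of either siRNA (adjusted p 0.026 to 0.21). The remaining 6 syntaxins, Stx11, Stx16, Stx17, Stx1a, Stx3 and Stx5a, were not called with siEhd1 in either state.

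**Figure D2:**
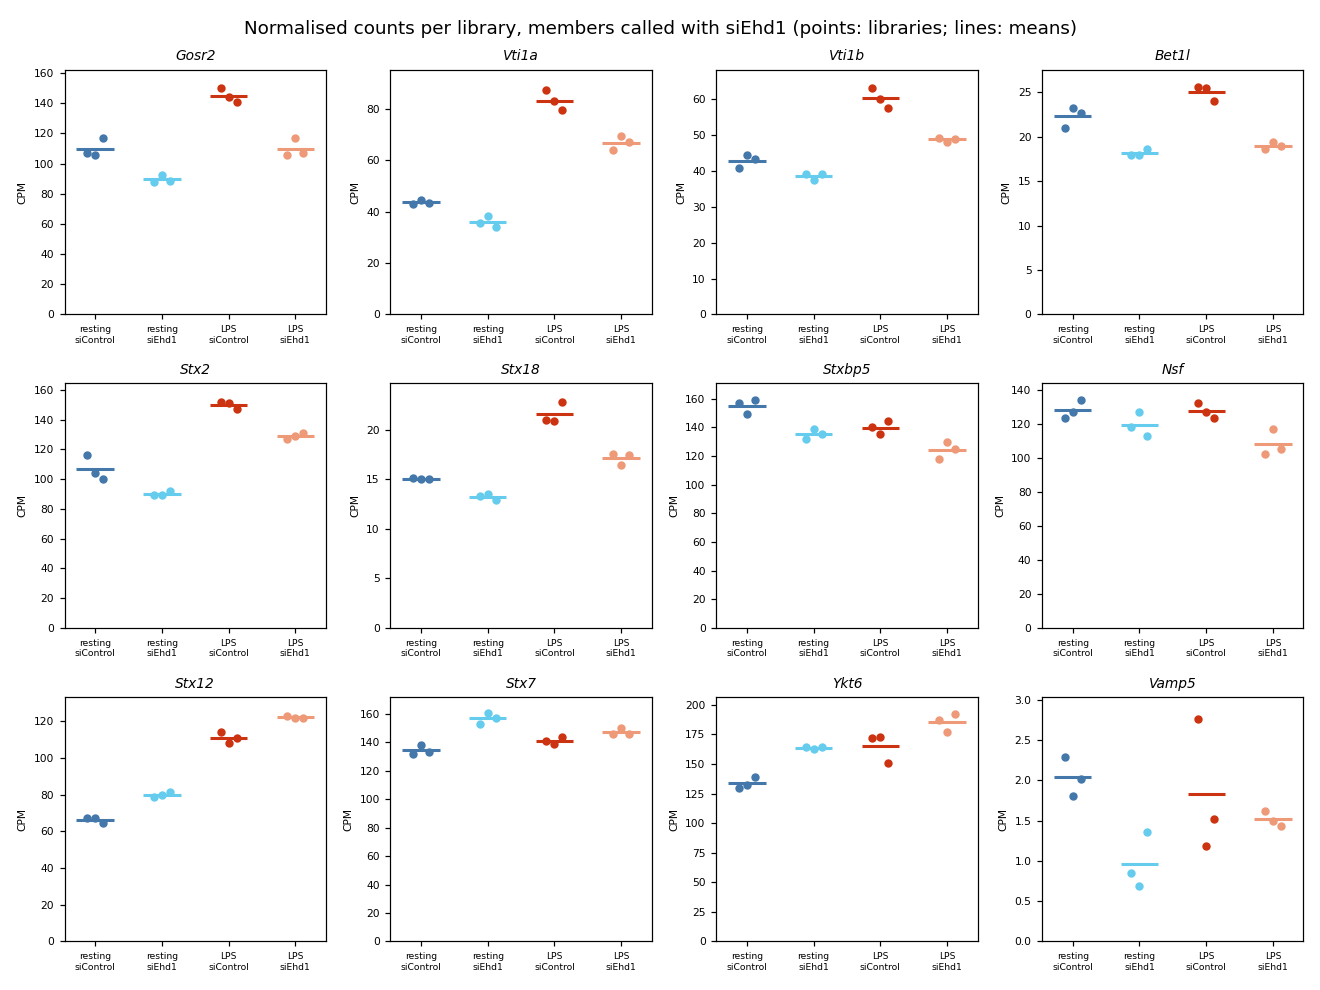
TMM-normalised CPM (vertical axes, from 0) for 12 members called with siEhd1, by group, with 1 point per library and a line at each group's mean. Gosr2, Vti1a, Bet1l and Stx2 have their siEhd1 points below the siControl points in both states, and Stx12, Stx7 and Ykt6 have them above.

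Among the R-SNAREs, Ykt6, which works at the Golgi and on autophagosomes, was higher with siEhd1 at rest, at 130, 132 and 139 CPM with siControl and 164, 163 and 164 with siEhd1 (0.29, SE 0.06, edgeR adjusted p = 5.5e-04). After LPS its values were 172, 173 and 151 against 187, 177 and 192 (0.17, edgeR adjusted p = 0.073). The siEhd1 libraries were above the siControl libraries in both states. Vamp5, a low-level member, stood at 2.29, 1.80 and 2.02 CPM with siControl and 0.854, 0.683 and 1.36 with siEhd1 at rest (-1.07, SE 0.29, edgeR adjusted p = 0.0084). Its LPS-treated values overlapped, at 2.76, 1.19 and 1.52 against 1.62, 1.50 and 1.43. Without M0_siEHD1 replicate 2 its resting adjusted p was 0.051, and over all alternatives its fold change ran from -1.40 to -0.87. Without M1_siCON replicate 1, the highest LPS-treated library for this gene, Vamp5 was called for the difference between states. The other 8 R-SNAREs and relatives, Vamp1, Vamp2, Vamp3, Vamp4, Vamp8, Sec22a, Sec22b and Sec22c, were not called with siEhd1 in either state.

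Snap23 was at 175, 168 and 162 CPM with siControl and 140, 156 and 155 with siEhd1 at rest, without overlap (-0.16, SE 0.05, edgeR adjusted p = 0.033). The call was lost without M0_siCON replicate 1 or 2 or M0_siEHD1 replicate 1 (adjusted p 0.029 to 0.19 over all alternatives). After LPS the groups overlapped, at 118, 118 and 115 against 120, 108 and 116 CPM. Snap47, the other protein with both helices, was not called (-0.15 at rest and -0.12 after LPS).

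Of the regulators, Stxbp5 (tomosyn), which occupies syntaxins in place of an R-SNARE, was at 157, 149 and 159 CPM with siControl and 132, 139 and 135 with siEhd1 at rest, and at 140, 135 and 144 against 118, 130 and 125 after LPS. It was lower without overlap in both states (-0.20, SE 0.05, edgeR adjusted p = 0.0065, and -0.17, SE 0.05, edgeR adjusted p = 0.045). The LPS-state call was lost in 9 of 12 alternatives, among them leaving out any M1_siCON library or M1_siEHD1 replicate 1 or 3, with adjusted p from 0.040 to 0.22. Stxbp4, which binds Stx4a, was at 5.85, 5.70 and 5.66 CPM against 4.31, 4.53 and 4.39 at rest (-0.38, SE 0.13, edgeR adjusted p = 0.038). Leaving out any 1 of the 6 resting libraries ended this call (adjusted p 0.024 to 0.11 over all alternatives). With LPS the Stxbp4 groups overlapped, at 4.69, 5.75 and 6.61 against 6.68, 5.52 and 5.28 CPM.

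Nsf, the ATPase that disassembles spent bundles, was at 132, 127 and 123 CPM with siControl and 102, 117 and 105 with siEhd1 after LPS (-0.24, SE 0.06, edgeR adjusted p = 0.016). The groups were separate there, whereas at rest they overlapped (123, 127 and 134 against 118, 127 and 113; -0.10, edgeR adjusted p = 0.21). Leaving out M1_siCON replicate 1, M1_siEHD1 replicate 1 or M1_siEHD1 replicate 3 ended the call, with adjusted p up to 0.11. Its adaptors Napa (alpha-SNAP) and Napg (gamma-SNAP) were not called with siEhd1, and nor were Stxbp2, Stxbp3 and Stxbp6.

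Arranged by the textbook complexes in which they work, a grouping made after the values were seen, called and uncalled members sat side by side. In the ER-to-Golgi bundle of Stx5a, Gosr2, Bet1 and Sec22b, Gosr2 was lower in both states, while Stx5a (-0.14 and -0.08), Bet1 (-0.02 and 0.05) and Sec22b (0.01 and -0.05) were not called. For the return route to the ER, Stx18 was lower after LPS and its partners Bnip1 and Use1 (0.12 and 0.10) were not called. Within the Golgi, Bet1l was lower in both states, Ykt6 was higher at rest and Gosr1 was not called. At the trans-Golgi network, Vti1a was lower in both states, whereas Stx16 (-0.19 and 0.03), Stx6 (0.04 and -0.02) and Vamp4 (0.12 and 0.04) were not called. In the late endosome bundle, Vti1b was lower and Stx7 higher at rest, with Stx8 (-0.10 and -0.09) and Vamp8 (0.14 and 0.01) not called.

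Setting the fold changes against the printed sites, 5 of the 10 members lower at rest carried GCCTTGT (Gosr2, Stx2, Stxbp4, Vti1a and Vti1b), as did 28.7% of all genes lower at rest with a searched 3′ UTR, 9.09% of those higher and 13.0% of those not called. After LPS, 5 of the 8 lower members carried it (Gosr2, Stx18, Stx2, Vti1a and Vti1b), against 50.6% of all lower genes, 10.7% of higher genes and 13.2% of genes not called. None of the 3 members higher at rest carried it. The 10 carriers had a median log2 fold change of -0.17 at rest and -0.24 after LPS, and the 32 other members -0.09 and 0.02. Carriers that were not called in either state were Napa, Napg, Sec22a and Stx6, whose fold changes lay between -0.26 and 0.09. Lower members with no match were Bet1l, Snap23, Stx4a, Stxbp5 and Vamp5 at rest and Bet1l, Nsf and Stxbp5 after LPS. Because the sequence was picked on these libraries, these shares are no independent evidence, and no test was made.

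**Figure D3:**
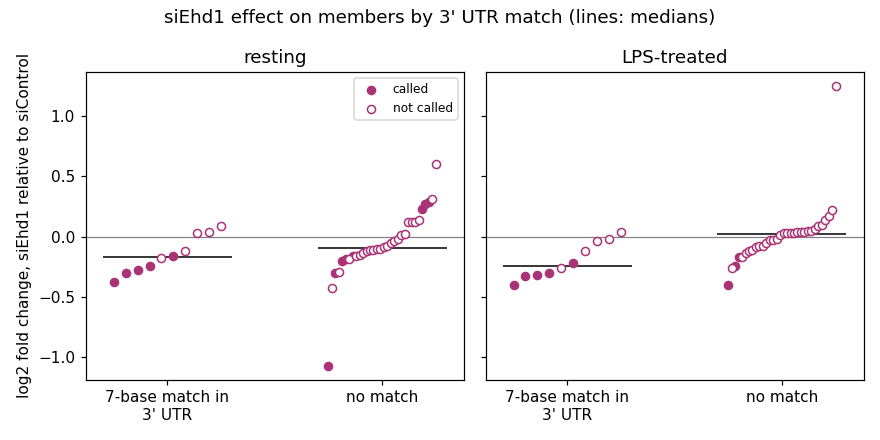
Log2 fold change with siEhd1 (vertical axis) of the 10 members with a GCCTTGT match in a 3′ UTR and the 32 without, resting on the left and LPS-treated on the right, with 1 point per member, filled where called by edgeR, and lines at the medians. After LPS the carriers' median is -0.24 and that of the other members 0.02, and both classes hold called and uncalled members.

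The second comparison asked how LPS changed the members. In siControl cells 18 were higher (42.9%), against 34.8% of all genes tested, and 8 lower (19.0%), against 34.0% of all genes. The lower members include Stxbp6, described below by its counts. The median was 0.09 over members and -0.01 over all genes. In siEhd1 cells 18 were higher, against 32.9% of all genes, and 9 lower, against 34.0%. Higher with both siRNAs were 16 members (29.5% of all genes) and lower with both were 8 (28.6% of all genes). Bet1l and Napg were called higher with siControl alone, Stxbp2 and Stxbp4 higher and Nsf lower with siEhd1 alone, and the difference between siRNAs was not called for any of them. Without M1_siEHD1 replicate 1 the Stxbp4 call was lost (adjusted p 0.090), and Nsf was lost in 6 of 12 alternatives, among them without M0_siEHD1 replicate 1 or 2 or M1_siEHD1 replicate 1 or 3. At least 2-fold and called in siControl cells were 4 members (Stx11, Stxbp3, Vamp1 and Stxbp6), where 20.4% of all genes were.

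**Figure D4:**
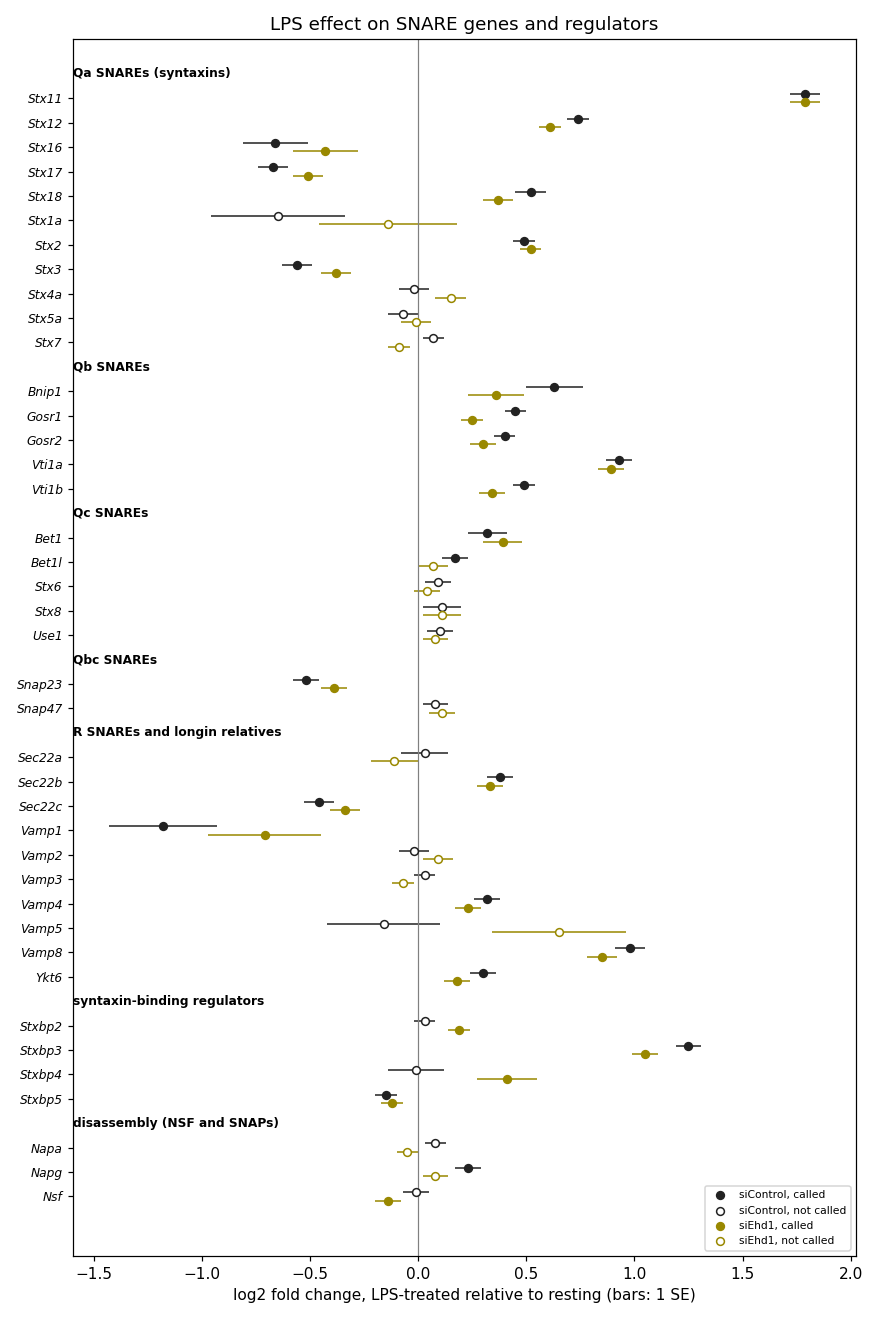
Log2 fold change of LPS-treated relative to resting cells (horizontal axis, bars 1 SE) for the members by role, siControl in black and siEhd1 in ochre, with filled points for members called by edgeR. Stxbp6 is left out for its few counts and 1 further member is not shown. All 5 Qb SNAREs are filled and right of zero with both siRNAs, and Stx11 at 1.79 is the farthest right.

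Stx11, a syntaxin of granule release in cytotoxic and myeloid cells, rose from 8.36, 8.99 and 9.74 CPM to 30.3, 31.1 and 32.0 with siControl, and from 8.54, 8.11 and 8.35 to 29.5, 28.3 and 28.7 with siEhd1. The log2 fold change was 1.79 with each siRNA (SE 0.07, edgeR adjusted p = 6.9e-15 and 9.3e-15). Its Sec1/Munc18 partner Stxbp2 was not called in siControl cells (0.03, edgeR adjusted p = 0.52) and rose by 0.19 in siEhd1 cells (edgeR adjusted p = 0.0015). Stxbp3, the Munc18 protein that binds Stx4a, rose from 92.1, 97.4 and 92.5 CPM to 204, 222 and 244 with siControl (1.25, SE 0.06, edgeR adjusted p = 1.8e-13), and from 94.6, 98.7 and 93.4 to 208, 195 and 191 with siEhd1 (1.05). Its syntaxin Stx4a was not called, at 127, 126 and 117 CPM at rest and 125, 122 and 117 after LPS (-0.02, edgeR adjusted p = 0.80).

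Vamp1 fell from 5.90, 5.96 and 4.26 CPM to 1.78, 1.98 and 3.33 with siControl (-1.18, SE 0.25, edgeR adjusted p = 5.4e-04) and from 4.06, 3.59 and 4.30 to 2.60, 1.45 and 3.33 with siEhd1 (-0.71, edgeR adjusted p = 0.024). The siEhd1 call was lost without M0_siEHD1 replicate 1 or 3 or M1_siEHD1 replicate 2 (adjusted p 0.0055 to 0.12 over all alternatives). The rarest member, Stxbp6 (amisyn), had 21 counts over the 3 resting siControl libraries and 2 over the LPS-treated ones, 10.6% of the resting level with a counting interval of 1.20 to 43.3% (95%). With siEhd1 it had 33 and 5 counts, or 18.2% (5.56 to 47.0%). Stxbp6 passed the filter on low counts only through the resting siEhd1 libraries, where it was highest, so its calls among the lower members are not read as a result, and the intervals cover counting error only. Just under 2-fold were Vamp8 (0.98) and Vti1a (0.93), and next came Stx12 (0.74).

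**Figure D5:**
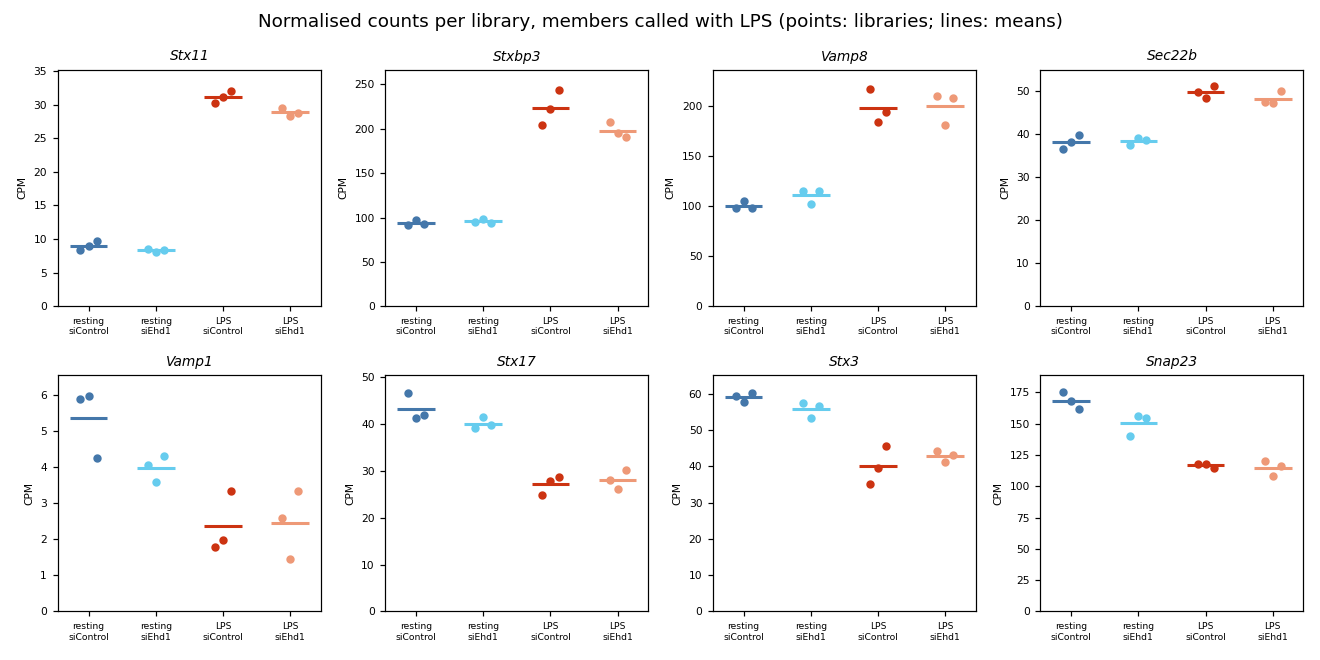
TMM-normalised CPM (vertical axes, from 0) for 8 members called with LPS, by group, with 1 point per library and a line at each group's mean. Stx11, Stxbp3, Vamp8 and Sec22b have all LPS-treated points above all resting points, and Vamp1, Stx17, Stx3 and Snap23 have them below.

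By role, all 5 Qb SNAREs rose with both siRNAs, with fold changes of 0.40 to 0.93 in siControl and 0.25 to 0.89 in siEhd1 cells. Vti1a led them and rose from 43.5 ± 0.828 to 83.1 ± 3.89 CPM with siControl (SD, n = 3). For Vti1b (0.49), reads from the exonic bases shared with Arg2 cannot be assigned to 1 gene. Arg2 averaged 1.10 CPM in resting and 43.9 CPM in LPS-treated siControl libraries, and its part in the Vti1b rise was not tested. Bnip1, whose rise in siEhd1 cells (0.36) was lost without M0_siEHD1 replicate 3 or M1_siEHD1 replicate 2, was 0.63 in siControl cells. Of the 11 syntaxins, 4 rose and 3 fell with each siRNA (36.4% and 27.3%), shares near the 34.8% and 34.0% of all genes in siControl cells. Stx12 (0.74), Stx18 (0.52) and Stx2 (0.49) rose beside Stx11 in siControl cells. The fallers were Stx17, the autophagosomal syntaxin (-0.67), Stx16 of the trans-Golgi network (-0.66) and Stx3 of the plasma membrane and granules (-0.56). Stx16 fell by 0.43 in siEhd1 cells, a call lost in 5 of 12 alternatives (among them without M0_siEHD1 replicate 1 or 3 or M1_siEHD1 replicate 2). Of the 10 R-SNAREs and relatives, Vamp8, Sec22b (0.38), Vamp4 (0.32) and Ykt6 (0.30) rose, and Vamp1 and Sec22c (-0.46) fell. Among Qc members Bet1 rose by 0.32 and Bet1l by 0.17, the latter call lost in 5 of 12 alternatives (among them without M0_siCON replicate 1 or M1_siCON replicate 1 or 2). Snap23 fell by 0.52 (edgeR adjusted p = 4.6e-08). Stxbp5 fell by 0.15, and without M0_siCON replicate 3 or M1_siCON replicate 2 the Stxbp5 call was lost (adjusted p up to 0.073). Of the disassembly genes Napg rose by 0.23, and Nsf and Napa were not called in siControl cells.

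Members of the route by which macrophages bring TNF to the surface were also set side by side, a choice made after their values were seen. Stx6, Stx7 and Vti1b meet Vamp3 at the recycling endosome, and Stx4a and Snap23 meet Vamp3 at the plasma membrane. With LPS in siControl cells Vti1b rose by 0.49, with the limit of its overlap with Arg2 given above. Snap23 fell by 0.52, while Stx6 (0.09), Stx7 (0.07), Vamp3 (0.03) and Stx4a (-0.02) were not called. Snap23 stood at 175, 168 and 162 CPM at rest and 118, 118 and 115 after LPS, so its transcript was lower in every LPS-treated library. For fusion of autophagosomes with lysosomes, Stx17 fell from 46.5, 41.3 and 41.8 to 24.9, 27.8 and 28.7 CPM, whereas Vamp8 rose from 98.0, 105 and 98.2 to 217, 184 and 194 CPM. Their R-SNARE alternative Ykt6 rose by 0.30.

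Genes that act with the SNAREs were counted from lists that do not overlap the members. Their counts are to be read against the shares of all genes called, which with siEhd1 were 14.0% higher and 14.2% lower at rest and 4.44% and 4.10% after LPS, and with LPS in siControl cells 34.8% and 34.0%. Of 13 SM proteins and HOPS/CORVET tethers, which prepare endosome and lysosome fusion, siEhd1 lowered Vps16 at rest (-0.17) and raised Tgfbrap1 after LPS (0.17), and the other 12 in each state were not called. With LPS 2 of these 13 rose in siControl cells (Scfd1 0.40, Vps8 0.28) and 5 fell, among them Vipas39 (-1.16), Vps39 (-0.75) and Vps18 (-0.34). The exocyst, the tether at the plasma membrane, had 1 of 9 subunits higher with siEhd1 at rest (Exoc5, 0.15) and 1 lower (Exoc4, -0.34), and Exoc4 was again the 1 lower after LPS (-0.28). With LPS in siControl cells 4 of the 9 rose (44.4%) and 3 fell (33.3%). Smallest p had Exoc1 (0.30) among those higher and Exoc6b (-0.25) among those lower. Of 19 Golgi and ER tethers, Cog8 was the 1 called with siEhd1 after LPS (-0.19). At rest 2 of those 19 were higher with siEhd1 (Cog5 0.26 and Cog6 0.18). LPS raised 7 (36.8%) and lowered 2 (10.5%) of them in siControl cells, with the Golgi tether gene Uso1 at 0.69.

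Calcium sensors and other genes of regulated exocytosis were listed as 32 symbols, of which 18 passed the filter on low counts. With siEhd1 at rest Syt11 and Syt3 were lower. Syt6 was called higher (0.205 against 0.868 CPM on average), but it passed the filter only through the resting siEhd1 libraries, where it was highest, so that call is not read as a result. Syt11, a synaptotagmin that does not sense calcium, averaged 69.4 CPM with siControl and 41.7 with siEhd1 at rest (-0.73, edgeR adjusted p = 1.9e-08), and 34.0 and 29.0 after LPS (-0.23, edgeR adjusted p = 0.027). Its difference between states was 0.51 (SE 0.09, edgeR adjusted p = 0.0010), the 1 call for the difference in any of these lists. LPS raised 6 of the 18 in siControl cells (33.3%) and lowered 8 (44.4%). Among these, Scamp1 (1.53) had the smallest p of those higher and Syt11 (-1.03) of those lower. The raised include Syt7 and Cplx2, near 0 at rest and at most 1.43 CPM after LPS, which passed the filter only through the LPS-treated libraries. The lowered include Syt6 and Syt3, which passed it only through resting libraries. The LPS calls of Syt7, Cplx2, Syt6 and Syt3 are therefore not read as a result, although both shares include them. A further list held Ehd1 and its partners in recycling. Of its 12 tested genes, Pacsin2, the membrane-bending partner, was higher with siEhd1 in both states (0.32 and 0.27), Rab10 at rest (0.14) and Ehd4 after LPS (0.20). Rbsn, the rabenosyn gene, was lower in both states (-0.45 and -0.36), as were Rab11fip2 (-0.35 and -0.63) and Ehd1 itself. Across these lists the tested carriers of GCCTTGT were Exoc4, Cog8, Rbsn and Rab11fip2, each lower with siEhd1 in at least 1 state, Exoc3, Exoc6b and Unc13b, not called in either, and Syt6.

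Promoters of 38 members could be read from RefSeq (GRCm38.p6, 250 bases before to 50 after the start). The NF-kB consensus, searched on both strands, was found in 3 of them (Bnip1, Use1 and Vamp4; 7.89%), against 5.14% of 27025 genes. A pair of GAAA repeats with any 2 bases between them, as in interferon response elements, also searched on both strands, was in 2 (Gosr2 and Vamp1; 5.26%), against 3.99%. Both shares were near those of all promoters, and a match is a description of letters, not of binding.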

How the data were processed

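The deposited values are whole-number counts for each gene symbol, and resting and LPS-treated libraries have a table each. All 12 columns were mapped to samples by their titles (0 columns unused). Reads were handled with STAR 2.7.6a, featureCounts 2.20.0, Trim Galore 0.6.3, cutadapt and FastQC 0.10.1 on build mm10, and R 4.4.2 with DESeq2 1.46.0 is also named, per the submitters' processing notes. The sources used here do not give the annotation, strand setting or handling of multi-mapping reads, so genes that overlap or have near-identical copies are uncertain. Per the labels' protocols, RNA was column-purified and libraries were polyA-enriched.

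Both tables were fitted together in R 4.3.3 with edgeR 4.0.16: filterByExpr by group (minimum count 10, total 15), TMM factors, a robust quasi-likelihood fit with 1 mean per group and 8 residual degrees of freedom, F tests of 5 contrasts and Benjamini-Hochberg adjustment over 12164 genes, called below 0.05. The common biological coefficient of variation was 0.0588. Alternatives were DESeq2 1.42.0, limma-voom (limma 3.58.1), RLE factors, no filter, only the groups compared, a replicate block and leaving out each library. The fit was tested on simulated data with known changes, and the outcome is not reported here. A member not called is therefore not shown to be unchanged. No 2 libraries held identical values, and chi-square per degree of freedom between replicates was 3.102 to 24.84, above counting noise alone. Pairs of M1_siCON libraries were highest, at 10.42 to 24.84, and pairs within the other groups were at 3.102 to 8.740.

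The members, role groups, pathway lists and GCCTTGT were chosen with earlier results of these data known. Every member called with siEhd1 is named with its library values (12 per contrast by smallest p, further ones by fold change), LPS-called members with library values where changed at least 2-fold, and pathway genes up to 3 per direction by p. Other members were named after their values were seen. The 3′ UTRs were taken from GENCODE M21 transcripts (GRCm38), matched for 44 of the 45 symbols, and searched on the transcript strand. The 12 libraries included no sample without an siRNA. A few symbols are counted among the totals but not reported here.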

Additional observations from a re-analysis of the deposited data

How the results depend on the processing

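Each call of a member was repeated under the alternatives: of 887 repeats over 74 called results, 816 kept their direction and call, 71 kept the direction and lost the call, and 0 reversed. Members lower with siEhd1 at rest numbered 10, and 6 to 9 with 1 library left out (6 without M0_siEHD1 replicate 1 and 6 without M0_siEHD1 replicate 2). The replicate block gave 6, losing Stxbp4, Vti1b, Snap23 and Stx4a. Between siRNAs, correlations of same-numbered libraries were -0.17 to -0.06 at rest and -0.04 to 0.19 after LPS. Between states they were -0.16 to 0.04 with siControl and 0.01 to 0.25 with siEhd1. Between siRNAs, 0 of 3 libraries at rest and 1 of 3 after LPS correlated best with their own number. Between states, 0 of 3 did with siControl and 2 of 3 with siEhd1. These correlations cannot settle whether libraries were paired by replicate number. Members higher with siEhd1 after LPS numbered 0, and 1 with RLE factors (Stx12), 1 with limma-voom (Stx12), 2 with DESeq2 (Stx12 and Ykt6) and 0 to 1 with 1 library left out (Ykt6 without M1_siCON replicate 1). Members lower after LPS numbered 8, and 5 to 8 with 1 library left out (5 without M1_siEHD1 replicate 1). For the difference between states the count of 0 higher became 0 to 1 (Vamp5 without M1_siCON replicate 1). The cause of these shifts was not tested, beyond fewer libraries in the fits that left 1 out. Gosr2, Vti1a and Bet1l (lower in both states), Stx12, Stx7 and Ykt6 (higher at rest) were called under every alternative run for those contrasts. With LPS in siControl cells, Stxbp5 and Bet1l were the calls lost under any alternative. Depth limited Stxbp6, Stx1a, Vamp1 and Vamp5 most, whose standard errors reached 0.29 or more. With only the siControl groups in the fit, Stxbp6 failed the filter on low counts and gave no value.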
